A study of Bos taurus with 15 samples.

Results

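A rule for pit mucous cells of the newborn (NB) cattle abomasum selected 798 *TFF1*-rich barcodes in 1 library, of which 321 lay in a cluster led by pit markers and 411 in a cluster that was left unnamed. A barcode of the Abomasum NB library was counted as *TFF1*-rich if it had 500 to 4000 genes and under 50000 unique molecular identifiers (UMIs), if *TFF1* made up at least 0.2% of its UMIs, and if *ATP4A* made up under 0.3%. The 798 were 5.62% (95% interval 5.25 to 6.01) of the 14198 barcodes in the library, and they were compared with all 13400 other barcodes of the same library. The barcodes were thus chosen by their measured *TFF1* and *ATP4A* shares, so both genes are given as a description, and every contrast between the *TFF1*-rich and the other barcodes is a description as well.

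The study profiled digestive tissues of cattle at the NB and adult (AD) stages by droplet-based scRNA-seq, and 15 libraries with 172405 barcodes were used here, 11 NB and 4 AD. The abomasum was represented by 1 library from the newborn stage, and no AD abomasum was analyzed here. Per the study's methods, tissues came from 3 NB calves of similar weight, whose breed is not given there, and the calf behind the abomasum library is not named. The 4 AD libraries came from 1 lactating Holstein dairy cow. No treatment or genetic change is given for any group. The tissue was stripped of muscle, exposed to EDTA and trypsin, and dissociated with collagenases I and IV, hyaluronidase, dispase, and DNase I. Because there was 1 library and no replicate, no test between groups was possible, no p-value is given, and the intervals cover the counting error of UMIs or barcodes alone.

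Pit mucous cells, also called surface or foveolar mucous cells, line the stomach surface and the pits that lead into the gastric glands. They secrete mucin, trefoil peptides, and gastrokines and release bicarbonate, which together hold a protective gel over the epithelium, and they are steadily replaced by cells that move up from dividing progenitors below. In the same glands, mucous neck cells secrete *TFF2*, chief cells secrete pepsinogens and, in the suckling calf, the milk-clotting enzyme chymosin (*CYM*), and parietal cells secrete acid through the proton pump encoded by *ATP4A* and *ATP4B*. The secreted mucins *MUC5AC* and *MUC6* were not analyzed here, because no identifier in the files carries their symbols.

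The *TFF1* share of the *TFF1*-rich barcodes ranged from 0.201% to 1.61% of UMIs, with a median of 0.486%. The lower and upper quartiles were 0.316% and 0.711%. There was no gap at the threshold. Just inside it, 88 barcodes had 0.2% to 0.25%, and just outside it, 100 barcodes within the same limits had 0.15% to 0.2%, the highest of them at 0.1997%. The *ATP4A* limit removed 5 barcodes with 0.420% to 0.773% *ATP4A*, whereas 418 *TFF1*-rich barcodes had no *ATP4A* UMI and the highest had 0.259%. A further 133 barcodes reached the *TFF1* minimum outside the other limits, 114 with under 500 genes and 19 with over 4000 genes.

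**Figure D1:**
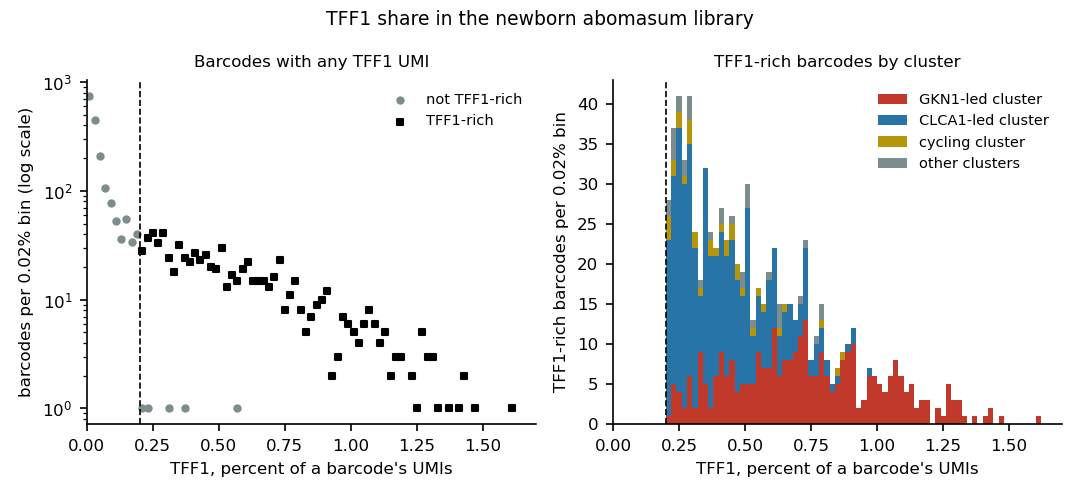
Left: number of newborn abomasum barcodes with a *TFF1* UMI, within the limits on genes and UMIs, per 0.02% bin of *TFF1* share. The x axis is percent of a barcode's UMIs, and the y axis is on a log scale. *TFF1*-rich barcodes are black squares, the others gray circles, and the minimum of 0.2% a dashed line. The 7392 barcodes within the limits that have no *TFF1* UMI are not drawn. Right: the 798 *TFF1*-rich barcodes in the same bins, stacked by the cluster that holds them. The counts pass through the threshold without a gap, and all 67 barcodes above 1% lie in the *GKN1*-led cluster.

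*TFF1*-rich barcodes had a median of 8312.5 UMIs and 2370.5 genes. The medians were 4076 UMIs and 1246 genes in all other barcodes, of which many had under 500 genes, and 7004.5 UMIs and 1559 genes in the others within the same limits on genes and UMIs. Mitochondrial UMIs had a median of 9.68% in *TFF1*-rich barcodes, 7.42% in all others, and 5.08% in the others within the limits. A Scrublet score marked 46 of them (5.76%) as doublets, against 8.40% of all barcodes within the limits. Of the library's barcodes, 589 (4.15%) also occurred in another library of the series, and so did 31 of the *TFF1*-rich ones (3.88%), with 18 to 64 sequences shared with each other library. Doublets and shared barcodes were kept, and leaving either out is among the alternatives in the closing section.

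Genes known for pit mucous cells were high in the *TFF1*-rich barcodes. Of 12 genes listed as pit markers, 8 have a symbol in the files and 7 reached a mean of 10 CPM (UMIs per 1000000 UMIs of a group) over both groups. All 6 of these other than *TFF1* were at least 2-fold higher, also after centering on the median gene. *GKN1*, *GKN2*, and *CAPN8* were under 10 CPM in the other barcodes. They thus passed the filter only through the *TFF1*-rich barcodes, and the filter set their direction before centering. The other barcodes are a mixture that holds stromal, endothelial, and blood cells. Over all 6388 genes tested, 36.8% were at least 2-fold higher, and 9.19% after centering. *TFF1*, a trefoil peptide secreted onto the stomach surface, was at 5596 CPM against 89.0 CPM in the other barcodes, which follows from the rule. *GKN1* and *GKN2*, gastrokines secreted by the surface epithelium, were at 630 against 9.47 CPM and 70.4 against 1.19 CPM. *CAPN8*, a calpain protease of the stomach surface, was at 76.9 against 3.76 CPM, 20.4-fold higher (17.8 to 23.5). *VSIG1*, a junction protein of gastric epithelium, was at 645 against 48.3 CPM. *MUC1*, a membrane-bound mucin, was at 878 against 141 CPM. *ANXA10*, an annexin expressed in gastric epithelium, was at 2067 against 379 CPM. The eighth gene, *PSCA*, was listed at 0 in the whole library.

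The summed markers of other mucus-secreting cells rested on few genes in the *TFF1*-rich barcodes, and those of non-epithelial cells were low but not absent. The 4 mucous neck markers with a symbol summed to 24768 CPM against 871 CPM in the other barcodes, nearly all of it *TFF2*, with *AQP5* and *BPIFB1* at 0. The 4 goblet markers summed to 4389 against 497 CPM, nearly all of it *CLCA1* and *TFF3*, with *SPINK4* at 0. The 7 chief cell markers summed to 69567 CPM against 217510 CPM, and the 18 proliferation genes to 555 against 407 CPM. *PTPRC*, the pan-leukocyte gene, had no UMI among the 6347751 UMIs of the *TFF1*-rich barcodes, which allows up to 0.473 CPM. The 5 T cell markers summed to 6.93 CPM, with *CD3G* and *CD2* at 0, and the 5 myeloid markers summed to 18.3 CPM. The same sums were 911 and 10887 CPM in 536 barcodes of the leukocyte clusters, those with a listed T cell or myeloid marker among their 10 leading genes. A cluster of 113 barcodes led by *S100A12* and *FCN1*, in which *PTPRC* was at 211 CPM, had no listed marker among its leading genes and was not counted with them. The 6 fibroblast markers summed to 258 CPM, the 4 endothelial markers to 45.2 CPM, and the 6 parietal markers, with *ATP4A* among them, to 293 CPM against 19320 CPM in the parietal-like cluster. *CHGB*, *NEUROD1*, *HDC*, and *TPH1*, of 9 enteroendocrine markers, were at 0. The part of RNA from other cells in these levels was not tested.

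Clustering placed the *TFF1*-rich barcodes mainly in 2 groups. The library's 10004 barcodes within the limits fell into 22 Leiden clusters. One cluster, led by *GKN1*, *PHGR1*, *PGC*, *LY6G6E*, *ISG12(B)*, *CAPN8*, and *TFF1*, held 321 *TFF1*-rich barcodes (40.2%, 36.8 to 43.7) among its 344 and is pit mucous-like by its markers. The 10 leading genes of this cluster include 3 pit markers, *TFF1* among them, and 1 chief marker, *PGC*. Another, led by *CLCA1*, *TFF2*, *AGR2*, *TFF3*, *SPDEF*, and *GCNT3*, held 411 (51.5%, 48.0 to 55.0) among its 870. Its 10 leading genes include 2 goblet markers, 1 mucous neck marker, and 1 pit marker, so it was left unnamed and is called the *CLCA1*-led cluster. The other 459 barcodes of that cluster fell short of the *TFF1* minimum, with a median *TFF1* share of 0.0625%. A cycling cluster led by *CENPF* and *TOP2A* held 33 *TFF1*-rich barcodes, and the last 33 were spread over clusters of other kinds. The listed pit markers were thus high in the *TFF1*-rich barcodes summed as 1 group. Of their *CAPN8* UMIs, 446 of 488 came from the 321 in the *GKN1*-led cluster, and of their *GKN1* UMIs, 2979 of 4000. *VSIG1*, *MUC1*, and *ANXA10* were less than 2-fold different between the 2 main clusters. Only the 321 in the *GKN1*-led cluster carry the name by their leading genes. That share moved with the clustering, from 24.9% at resolution 2 to 88.3% at resolution 0.5, where 1 cluster of 866 barcodes held 705 *TFF1*-rich ones.

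**Figure D2:**
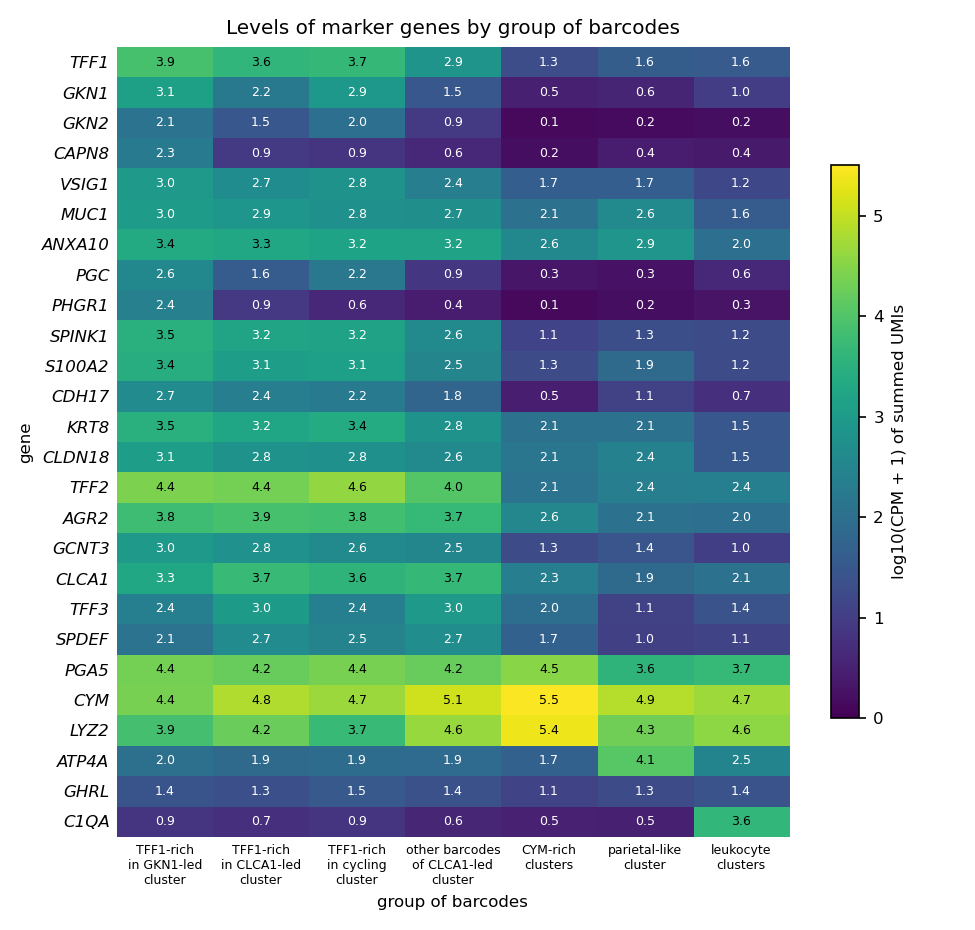
Levels of 26 genes (rows) in 7 groups of newborn abomasum barcodes (columns), as log10(CPM + 1) of UMIs summed over the group, printed in each cell and shown by color. Pit markers are highest in the first column, *CLCA1*, *TFF3*, and *SPDEF* in both columns of the *CLCA1*-led cluster, and *CYM* and *LYZ2* in the *CYM*-rich clusters.

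Over all genes, the contrast with the other barcodes was dominated by a general shift. Of 6388 genes with a mean of at least 10 CPM, 2352 (36.8%) were at least 2-fold higher in the *TFF1*-rich barcodes and 354 (5.54%) at least 2-fold lower. The median gene was 0.84 higher on the log2 scale of CPM plus a pseudocount of 1 CPM. *CYM* made up 195423 CPM and *LYZ2*, a stomach lysozyme, 146856 CPM of the other barcodes, against 50010 and 13228 CPM in the *TFF1*-rich ones. Centered on the median gene, 587 genes (9.19%) were at least 2-fold higher and 603 (9.44%) at least 2-fold lower, so the higher share of the calls fell from 86.9% to 49.3%. Counts for gene lists below are therefore centered, and these 2 percentages are their background.

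After *TFF1*, the largest ratios included those of several secreted proteins. Genes were ranked by the ratio with a pseudocount of 1 CPM, and the folds printed are without it. *GKN1* was 66.6-fold higher (61.9 to 71.6). *PGC*, the pepsinogen progastricsin, was at 175 against 2.85 CPM, 61.3-fold higher (53.7 to 70.2). *SPINK1*, a secreted trypsin inhibitor, was at 2122 against 47.0 CPM, 45.2-fold higher (43.7 to 46.7). Others among the 15 largest were an unnamed gene (ENSBTAG00000050611), *LY6G6E*, *PHGR1*, *ISG12(B)*, *S100A2*, *GKN2*, *S100A5*, *CDH17*, *TFF2*, and *C18H19orf33*. Among these, *S100A2*, a calcium-binding protein, was at 1717 against 47.0 CPM. *PHGR1*, a small protein of the gut surface epithelium, was at 94.8 against 1.41 CPM. *CDH17*, the liver-intestine cadherin, was at 305 against 9.03 CPM.

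The largest ratios in the other direction included genes known from endocrine cells and leukocytes. *GHRL*, which encodes ghrelin, was at 23.3 CPM against 870 CPM, and *CHGA*, the endocrine granule protein chromogranin A, at 3.15 against 98.2 CPM. The complement genes *C1QA*, *C1QB*, and *C1QC* of macrophages were at 3.78 to 6.30 CPM against 90.8 to 176 CPM. *CD52*, *BLA-DQB*, *BOLA-DRA*, *CD74*, *SRGN*, and *LAPTM5* and 4 genes without a symbol completed the 15 lowest ratios. The *GHRL* level was close to the 24.0 CPM in the leukocyte clusters, which do not make this hormone.

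Mucus production was represented by trefoil, glycosylation, and folding genes. *TFF2* was at 24746 CPM against 866 CPM in the other barcodes, 28.6-fold higher (28.3 to 28.8), and was the third most abundant transcript of the *TFF1*-rich barcodes after *CYM* and *COX1*. Per barcode, *TFF2* made up 0% to 10.3% of UMIs with a median of 1.60%, and 795 of 798 had at least 1 *TFF2* UMI. *CLCA1*, a secreted protein of mucus-producing cells, was at 3741 against 393 CPM, and *TFF3*, the trefoil of intestinal goblet cells, at 635 against 103 CPM. With a *TFF1* minimum of 1%, and the barcodes below it counted with the others, *TFF3* was lower than in the others, by a log2 ratio of -1.15. Of 21 O-glycosylation genes tested, 10 were at least 2-fold higher after centering and 2 lower, with a median of 0.95. *GCNT3*, which branches mucin O-glycans, was at 708 against 35.3 CPM. *B3GNT6*, the core 3 synthase, was at 35.3 against 1.58 CPM. *GALNT5*, *GALNT6*, *GALNT7*, and *GALNT12*, which start O-glycans, were at 44.3 to 222 CPM against 6.35 to 29.9 CPM. *ST3GAL4* and *GCNT1* were the 2 lower genes.

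Most of the general secretory machinery stayed near the median gene. Of 37 genes for the endoplasmic reticulum and protein export, 4 were at least 2-fold higher after centering and none lower, with a median of 0.16. The 4 were *AGR2*, a disulfide isomerase used for mucins, *AGR3* of the same family, *ERN2*, a stress sensor of mucus-producing epithelium, and *CREB3L1*, a transcription factor of secretory cells. *AGR2* was at 7083 against 509 CPM and *CREB3L1* at 354 against 47.5 CPM. Chaperones of broad use showed small centered differences, such as 0.08 for *HSPA5* and -0.03 for *HSP90B1*.

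Among the 14 function lists, the keratins and apical cytoskeleton genes of a polarized epithelium had the highest median. Of 13 simple keratin and apical cytoskeleton genes tested, 12 were at least 2-fold higher after centering and none lower, with a median of 2.41. *KRT8* was at 2237 against 139 CPM, *KRT19* at 1792 against 106 CPM, and *KRT18* at 2081 against 313 CPM. *MISP*, *PLS1*, *MYO1A*, *EPS8L1*, *EPS8L3*, and *VIL1*, proteins of the brush border or the apical cortex, were at 22.1 to 130 CPM against 0.901 to 12.8 CPM. Of 15 junction and adhesion genes tested, 8 were at least 2-fold higher and 1 lower, with a median of 1.37. *CLDN18*, the main claudin of stomach epithelium, was at 855 against 136 CPM, and E-cadherin (*CDH1*) at 253 against 47.9 CPM. The lower gene was *CLDN5*, an endothelial claudin. The comparator here holds stromal, endothelial, and blood cells, so these lists set epithelium against a mixture.

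Ion transport and transcription factor genes were split, and most of the EGF family genes tested were higher. Of 11 acid-base and ion transport genes tested, 4 were at least 2-fold higher and 2 lower after centering. *SLC4A4*, a sodium bicarbonate cotransporter, was at 89.0 against 9.14 CPM. *KCNK1* and the chloride channel *CFTR* were at 26.5 and 18.7 CPM against 4.07 and 3.47 CPM. *CA9*, a membrane carbonic anhydrase, was at 358 against 143 CPM, 0.49 above the median gene. Of 21 transcription factors tested, 7 were at least 2-fold higher, namely *HNF4G*, *ELF3*, *GATA5*, *SPDEF*, *FOXA3*, *KLF4*, and *KLF5*, and 4 were lower, namely *ID1*, *ID3*, *MYC*, and *BARX1*. *GATA5*, *ELF3*, and *SPDEF* were at 239, 304, and 315 CPM against 43.4, 55.1, and 59.3 CPM. With a *TFF1* minimum of 1%, and the barcodes below it counted with the others, *SPDEF* had a log2 ratio of -0.18. Of 4 EGF family genes tested, the receptors *ERBB2* and *ERBB3* and the ligand *BTC* were 4.70-fold to 6.02-fold higher.

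Defense and prostaglandin genes gave small groups. Of 10 mucosal defense genes tested, 3 were at least 2-fold higher after centering and 4 lower. *CXCL17*, a chemokine of mucosal surfaces, was at 2537 against 499 CPM. *DUOXA2*, the maturation factor of a hydrogen peroxide-producing oxidase, was at 21.7 against 0.435 CPM, and *IL1RN*, the interleukin 1 receptor antagonist, at 19.7 against 2.31 CPM and at 27.7 CPM in the leukocyte clusters. *HPGD*, which inactivates prostaglandins, was at 170 against 10.9 CPM, and the phospholipase *PLA2G10* at 42.8 against 1.65 CPM, 2 of 5 prostaglandin genes tested.

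Metabolic genes differed by pathway. Of 15 glycolysis genes tested, 4 were at least 2-fold higher after centering and 1 lower. *LDHA* was at 262 against 41.8 CPM, whereas *LDHB*, the other lactate dehydrogenase subunit, was at 65.2 against 196 CPM and at 1230 CPM in the parietal-like cluster. The glucose transporter *SLC2A1* was at 41.0 against 4.04 CPM. Of 20 redox genes tested, 7 were at least 2-fold higher and 3 lower, with *NQO1* at 167 against 31.3 CPM. Of 13 genes of the mitochondrial genome, none was higher and 6 were at least 2-fold lower after centering, and none was 2-fold different before it. Of 18 immediate early and stress genes, which respond to dissociation among other stimuli, none was at least 2-fold higher and 6 were lower after centering, with *JUN* at 1110 against 1190 CPM. None of 11 proliferation genes tested was 2-fold different after centering.

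**Figure D3:**
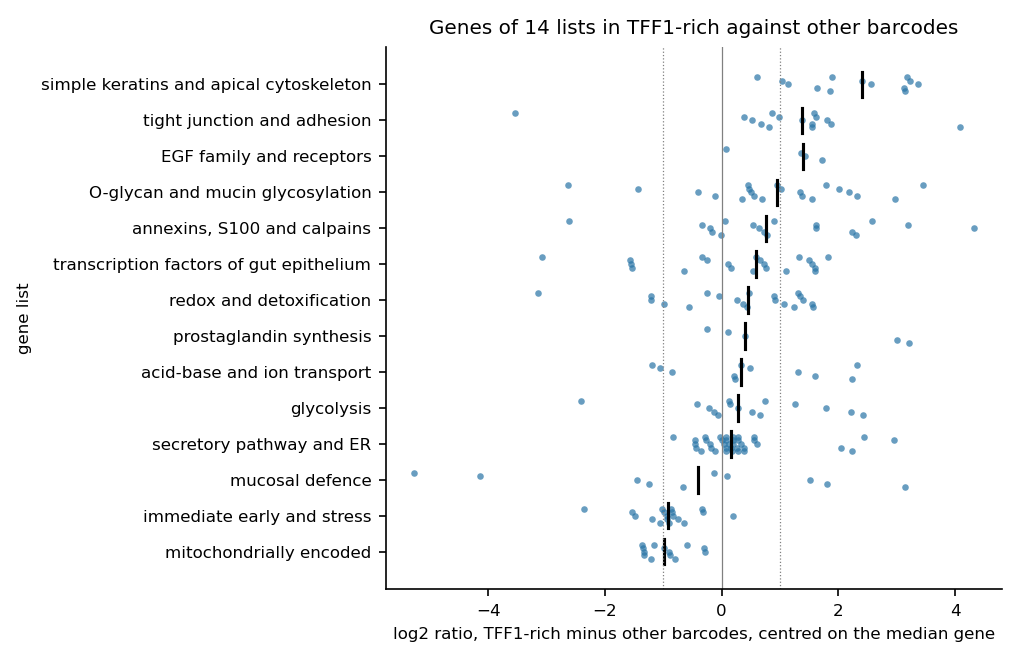
Log2 ratio of CPM between *TFF1*-rich and other barcodes, centered on the median gene (x axis), for the tested genes of 14 lists (rows). Each point is 1 gene, the black bar is the list's median, and dotted lines mark 2-fold. The keratin and apical cytoskeleton list has the highest median, 2.41, and the genes of the mitochondrial genome the lowest.

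The *TFF1*-rich barcodes were also set against other secretory cells of the gastric gland. Set against the 3307 barcodes of the *CYM*-rich clusters, 4776 of 5620 genes (85%) were at least 2-fold higher in the *TFF1*-rich barcodes and 29 (0.516%) lower, with *CYM* at 296323 CPM and *LYZ2* at 234094 CPM in the former. Centered on the median gene, which was 1.60 higher, 656 (11.7%) were higher and 317 (5.64%) lower. Set against the 722 barcodes of the parietal-like cluster, 2018 of 6371 genes (31.7%) were at least 2-fold higher and 496 (7.79%) lower, and after centering 880 (13.8%) and 923 (14.5%). Of the 6 pit markers tested other than *TFF1*, 5 were at least 2-fold higher than in the *CYM*-rich clusters after centering. Against the parietal-like cluster, 4 of the 6 were. *GKN1*, *GKN2*, and *CAPN8* had 106, 21, and 29 UMIs in the *CYM*-rich clusters and 19, 3, and 11 in the parietal-like cluster. These 3 genes thus passed the filter on mean CPM only through the *TFF1*-rich barcodes. *TFF2* was at 24746 CPM in the *TFF1*-rich barcodes, 125 CPM in the *CYM*-rich clusters, and 228 CPM in the parietal-like cluster. *KRT8* was at 2237, 113, and 120 CPM in the same order. Of 37 secretory pathway genes, 4 were higher and 6 lower than in the *CYM*-rich clusters after centering, while 22 of 36 were higher than in the parietal-like cluster and none lower. After centering, all 13 genes of the mitochondrial genome were at least 2-fold lower than in the parietal-like cluster, and none was 2-fold different from the *CYM*-rich clusters. Before centering, 12 were at least 2-fold lower than in the parietal-like cluster, and all 13 at least 2-fold higher than in the *CYM*-rich clusters. The median mitochondrial share was 9.68% in the *TFF1*-rich barcodes, 2.95% in the *CYM*-rich clusters, and 31.9% in the parietal-like cluster.

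The counts of digestive enzyme genes in *TFF1*-rich barcodes were set against those of leukocytes, which do not make chymosin or pepsinogen. *CYM* was at 50010 CPM in the *TFF1*-rich barcodes and at 49365 CPM in the leukocyte clusters. As UMIs per barcode, *CYM* averaged 163 in the *TFF1*-rich barcodes of the *GKN1*-led cluster, 303 in the leukocyte clusters, and 568 in the *TFF1*-rich barcodes of the *CLCA1*-led cluster. The mean in leukocytes was raised by few barcodes, with a *CYM* share of up to 31.8%, and 12.1% of leukocyte barcodes were marked as doublets. The median *CYM* share was 1.195% in leukocytes, 1.99% in the *GKN1*-led, and 5.15% in the *CLCA1*-led *TFF1*-rich barcodes, so that means and medians order the *GKN1*-led barcodes and the leukocytes differently. The 33 cycling and the 33 remaining *TFF1*-rich barcodes averaged 468 and 488 *CYM* UMIs. *LYZ2* averaged 53.5 UMIs per barcode in the *GKN1*-led, 142 in the *CLCA1*-led, and 228 in the leukocyte barcodes, with median shares of 0.703%, 0.642%, and 1.04% at median depths of 7343, 8773, and 4568 UMIs. Macrophages make lysozyme themselves, and *LYZ2*, *LYZ1*, and *LYZ3* are near-identical copies among which reads could be split, so the *LYZ2* values are uncertain. *LYZ2* was at 38961 CPM in the leukocyte cluster led by *C1QC* and *C1QA* and at 35789 CPM in that led by *CD52* and *CTSW*. The part of lysozyme made by macrophages was not tested.

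Pepsinogen counts lay above those of leukocytes. *PGA5*, a pepsinogen A gene, averaged 161 UMIs per barcode in the *GKN1*-led cluster and 141 in the *CLCA1*-led cluster, against 29.4 in leukocytes, with median shares of 2.00%, 1.45%, and 0.132%. In the *CYM*-rich clusters *PGA5* was higher, at 519 UMIs per barcode with a median share of 2.77%. Per barcode it averaged 154 UMIs in all *TFF1*-rich and 155 in all other barcodes. Its share of UMIs in single *TFF1*-rich barcodes ran from 0.134% to 8.70% with a median of 1.67%. *PGC* averaged 2.61 and 0.331 UMIs per barcode, against 0.0187 in leukocytes and 0.0178 in the *CYM*-rich clusters, where *CYM* makes up at least 20% of UMIs. *PGC* UMIs were found in 250 of the 798 *TFF1*-rich barcodes, and the barcode with most held 4.15% of them. *PGC*, known as a chief cell gene, was thus more abundant in these barcodes than in the clusters with most chymosin, by 1109 UMIs against 59.

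The *TFF1*-rich barcodes of the 2 main clusters differed in few genes. Of 6683 genes with a mean of at least 10 CPM, 273 (4.08%) were at least 2-fold higher in those of the *GKN1*-led cluster and 84 (1.26%) at least 2-fold lower than in those of the *CLCA1*-led cluster. Centered on the median gene, which was 0.19 higher, the counts were 156 (2.33%) and 159 (2.38%). These genes also built the clusters, so their differences describe the clusters and are no test.

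On the *GKN1*-led side, 3 of 7 pit markers tested were at least 2-fold higher, namely *GKN1*, *GKN2*, and *CAPN8*. *VSIG1*, at 931 against 472 CPM, *MUC1*, at 1117 against 775 CPM, and *ANXA10*, at 2334 against 1995 CPM, were not. *GKN1* was at 1315 against 166 CPM, *CAPN8* at 197 against 7.61 CPM, *PHGR1* at 247 against 7.32 CPM, and *PGC* at 369 against 39.8 CPM. *DUOXA2* had 137 UMIs in 67 of the 321 barcodes and none in the 411 of the *CLCA1*-led cluster, so that it was at least 68.9-fold higher against a floor of 3 UMIs over the group. The exact interval of the ratio, which also covers the counting error of the 137 UMIs, begins at 55.3-fold. Its partner oxidase *DUOX2* had 12 UMIs against none, at least 6.03-fold higher against that floor, with an exact interval that begins at 4.19-fold. Other genes among the 25 largest ratios were chosen after their values were seen. *ADM*, the vasoactive peptide adrenomedullin, was at 373 against 30.1 CPM. *SLC5A5*, the sodium-iodide symporter, was at 54.3 against 7.02 CPM and was found in 102 of 321 and 24 of 411 barcodes. *KCNN4*, a calcium-activated potassium channel, was at 73.7 against 14.3 CPM, and the growth factor-binding protein *IGFBP2* at 135 against 12.9 CPM.

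The 3 goblet markers tested were split. *TFF3* and *CLCA1* were at least 2-fold higher on the *CLCA1*-led side, and *REP15*, at 29.6 CPM in the *GKN1*-led and 4.39 CPM in the *CLCA1*-led barcodes, on the other. After centering, 1 of 38 secretory pathway genes and 3 of 22 O-glycosylation genes were at least 2-fold higher on the *CLCA1*-led side, and 2 O-glycosylation genes on the *GKN1*-led side. *TFF3* was at 971 against 235 CPM, *SPDEF*, a transcription factor of mucus-secreting cells, at 457 against 124 CPM, *CLCA1* at 5152 against 1890 CPM, and *FUT1*, a fucosyltransferase, at 272 against 92.7 CPM. *TFF2* and *AGR2* did not divide the barcodes in this way. *TFF2* was at 26220 CPM in the *GKN1*-led and 22928 CPM in the *CLCA1*-led ones, and *AGR2* at 6216 and 7921 CPM. Ribosomal protein genes, chosen as a group after their values were seen, made up 11.7% of UMIs in the *GKN1*-led and 20.2% in the *CLCA1*-led ones. Of 80 such genes, 10 were at least 2-fold lower in the former and none was 2-fold higher, beside 1.26% of all genes tested that were lower.

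The barcodes of the *CLCA1*-led cluster below the *TFF1* minimum had similar levels of several secretory genes. *TFF3* was at 926 CPM in the 459 barcodes below the minimum and at 971 CPM in the 411 above it, *SPDEF* at 506 and 457 CPM, and *CLCA1* at 4504 and 5152 CPM. *GKN1*, by contrast, was at 30.0 and 166 CPM, *TFF2* at 10805 and 22928 CPM, *S100A2* at 312 and 1175 CPM, and *CYM* at 123713 and 68312 CPM. No test applies, since the minimum and the clusters were both set on these counts.

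Divided by *TFF1* share, the *TFF1*-rich barcodes differed in the cluster that held them. The 415 barcodes with 0.2% to 0.5% *TFF1* lay in the *GKN1*-led cluster in 17.8% of cases, the 316 with 0.5% to 1% in 57.0%, and the 67 with 1% to 2% in 100%. None exceeded 2%. Across these 3 ranges *GKN1* was at 311, 664, and 2208 CPM, *PGC* at 71.0, 175, and 737 CPM, *S100A2* at 1024, 2177, and 3377 CPM, and *KRT8* at 1618, 2630, and 3798 CPM. *CLCA1* was at 4690, 3223, and 970 CPM, *TFF3* at 846, 510, and 60.8 CPM, and *CYM* at 70255, 33731, and 14831 CPM. *TFF2* was at 22009, 27359, and 27610 CPM. These courses run with the share of the *GKN1*-led cluster in each range. The shares of all genes in a barcode add to the same total, so these courses are not independent of each other. *TFF1* itself was at 3362, 6963, and 11459 CPM across the ranges. The part of the fixed total in the courses was not tested.

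**Figure D4:**
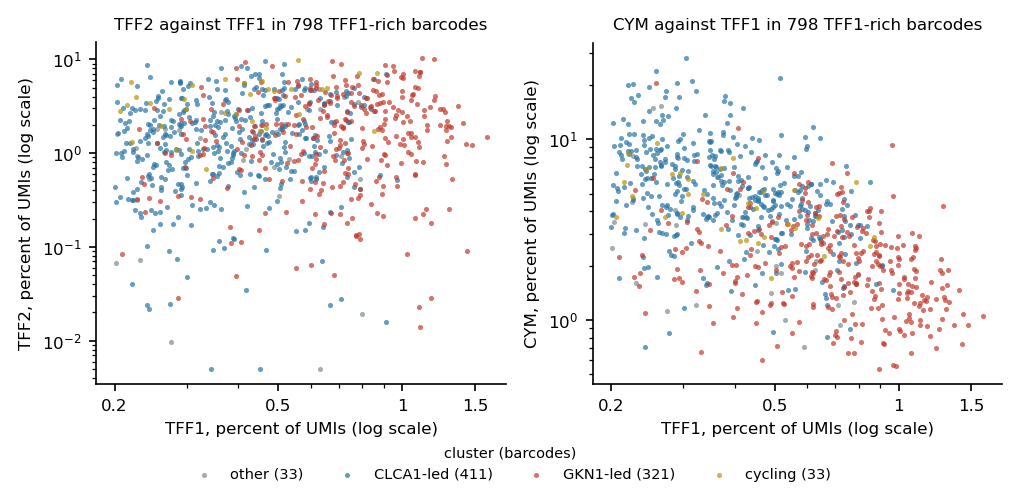
Share of UMIs of *TFF2* (left, y axis) and *CYM* (right, y axis) against that of *TFF1* (x axis), all on log scales, in the 798 *TFF1*-rich barcodes, with color for the cluster and 3 barcodes without *TFF2* drawn at 0.005%. *CYM* is lower at high *TFF1* (Spearman's correlation -0.58), and *TFF2* is weakly related to it (0.14).

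As a description over 798 barcodes of 1 library, the *TFF1* share had a Spearman's correlation of 0.63 with *S100A2*, 0.58 with *KRT19*, 0.14 with *TFF2*, and -0.58 with *CYM*. Within the *GKN1*-led and the *CLCA1*-led cluster, the correlation with *S100A2* was 0.51 and 0.47, and that with *CYM* was -0.35 and -0.40. For *GKN1* the correlation was 0.32 over all and 0.09 and 0.15 within the clusters, where many barcodes have no *GKN1* UMI. Within the clusters it was 0.04 and -0.05 for *CLCA1*, 0.06 and -0.05 for *TFF3*, and 0.12 and 0.04 for *PGC*.

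To compare detection at equal depth, each barcode was thinned to 1000 UMIs, which left out 4 *TFF1*-rich barcodes. *GKN1* was then found in 28.1% of the other 794 (24.98 to 31.35) against 0.748% of leukocyte barcodes, whose median depth before thinning was 4568 UMIs, and *TFF2* in 96.6% against 21.7%. Before thinning, *GKN1* was found in 53.1% and *TFF2* in 99.6% of the *TFF1*-rich barcodes, against 3.17% and 61.0% of leukocyte barcodes. After thinning, *GKN1* was found in 48.6% of the *GKN1*-led and 13.4% of the *CLCA1*-led *TFF1*-rich barcodes, and before it in 74.5% and 36.0%. The Shannon entropy of UMIs over genes, a measure of how evenly a cell's RNA is spread, averaged 8.04 ± 0.49 bits (SD over 794 barcodes). It averaged 4.72 ± 1.10 bits in the *CYM*-rich clusters and 6.89 ± 0.73 bits in the parietal-like cluster, but 8.01 ± 0.73 bits in leukocytes and 7.46 ± 0.63 bits in the other barcodes of the *CLCA1*-led cluster.

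Cycling was found in a small part of the *TFF1*-rich barcodes. The 33 in the cycling cluster had 6520 CPM over 18 proliferation genes, against 222 CPM in the *GKN1*-led and 220 CPM in the *CLCA1*-led ones. *MKI67* was at 287 CPM and *TOP2A* at 422 CPM in these 33. *TFF2* was at 41012 CPM there and *GKN1* at 871 CPM, of which 1 barcode held 45.6%. *TFF1* was at 4588 CPM, *S100A2* at 1284 CPM, and *PHGR1* at 3.06 CPM from 1 UMI. Among the barcodes with 1% to 2% *TFF1*, *MKI67* was at 1.74 CPM and *TOP2A* had no UMI.

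The 33 *TFF1*-rich barcodes in clusters of other kinds stood apart. Scrublet marked 29 of them as doublets, and the 6 fibroblast markers summed to 3970 CPM in them, against 48.1 CPM in the *GKN1*-led and 54.1 CPM in the *CLCA1*-led ones. Their *TFF1* level, 4172 CPM, was close to that of the *CLCA1*-led ones. Without them, 2360 genes were at least 2-fold higher and 349 lower, against 2352 and 354 with them.

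No barcode of the other 14 libraries met the rule. *TFF1* had 82 UMIs among their 1098286055 UMIs, with at most 0.681 CPM in 1 library, the NB duodenum. *GKN1* had 4 UMIs and *GKN2* had 9. *TFF2* was less confined to the abomasum, at 2339 CPM in that library, 1245 CPM in NB colon, 241 CPM in NB duodenum, and 140 CPM in NB rectum. Each library is 1 tissue at 1 stage, so tissue, animal, and dissociation cannot be told apart.

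Intestinal goblet cells, the mucus cells of the gut, gave a comparison outside the rule. Since no identifier carries the symbol *MUC2*, barcodes of NB intestinal libraries within the same limits were taken as goblet barcodes if *SPINK4*, a goblet gene, made up at least 0.2% of UMIs, a definition chosen after the data were seen. It gave 136 to 272 barcodes in 5 libraries (duodenum, jejunum, ileum, colon, and rectum). The cecum, with 28 such barcodes, was left out by a minimum of 50 barcodes per library. *SPINK4* itself had no UMI in the *TFF1*-rich barcodes. Summed as 1 group, the *TFF1*-rich barcodes lay within the range of the 5 goblet libraries for *AGR2*, at 7083 CPM against 4658 to 19391 CPM, and for *SPDEF*, at 315 CPM against 146 to 508 CPM. *KLF4*, at 189 CPM against 176 to 332 CPM, and *ELF3*, at 304 CPM against 236 to 310 CPM, also lay within it. By cluster, *SPDEF* was below that range in the *GKN1*-led barcodes, at 124 CPM, *KLF4* below it in the *CLCA1*-led ones, at 128 CPM, and *ELF3* above it in the *GKN1*-led ones, at 402 CPM. Of the 18 immediate early and stress genes, 17 were below every goblet library and 1, *GADD45A*, above them. The share of all genes that lay below every goblet library is not given here, so this count stands without a background. Per the study's methods, the final digestion used a commercial enzyme kit for the NB intestine and the enzymes named above for the abomasum. *HSPA1A* was at 667 CPM against 2582 to 5154 CPM, *DNAJB1* at 79.4 CPM against 543 to 1060 CPM, and *EGR1* at 57.3 CPM against 427 to 758 CPM. The genes named here were chosen after their values were seen. Tissue, library, cell type, and digestion all differ in this comparison, and the part of each was not tested.

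Other genes lay outside the goblet range. *TFF3* was lower, at 635 CPM against 1702 to 12716 CPM, and *CLCA1* higher, at 3741 CPM against 27.8 to 338 CPM. *ANXA10*, *GKN1*, and *GKN2* were listed at 0 in all 5 goblet libraries, and *CLDN18*, at 855 CPM in the *TFF1*-rich barcodes, reached at most 6.47 CPM. *FUT1* was at 194 CPM against at most 2.24 CPM. The intestinal transcription factors *ATOH1*, *CDX1*, and *CDX2* had no UMI in the *TFF1*-rich barcodes, which allows up to 0.473 CPM each. In the goblet libraries they were at 52.3 to 179 CPM, 39.6 to 201 CPM, and 19.3 to 40.9 CPM. *TFF2* ranged among goblet libraries from 2.80 CPM in the ileum to 20271 CPM in the colon, the latter near the 24746 CPM of the *TFF1*-rich barcodes.

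**Figure D5:**
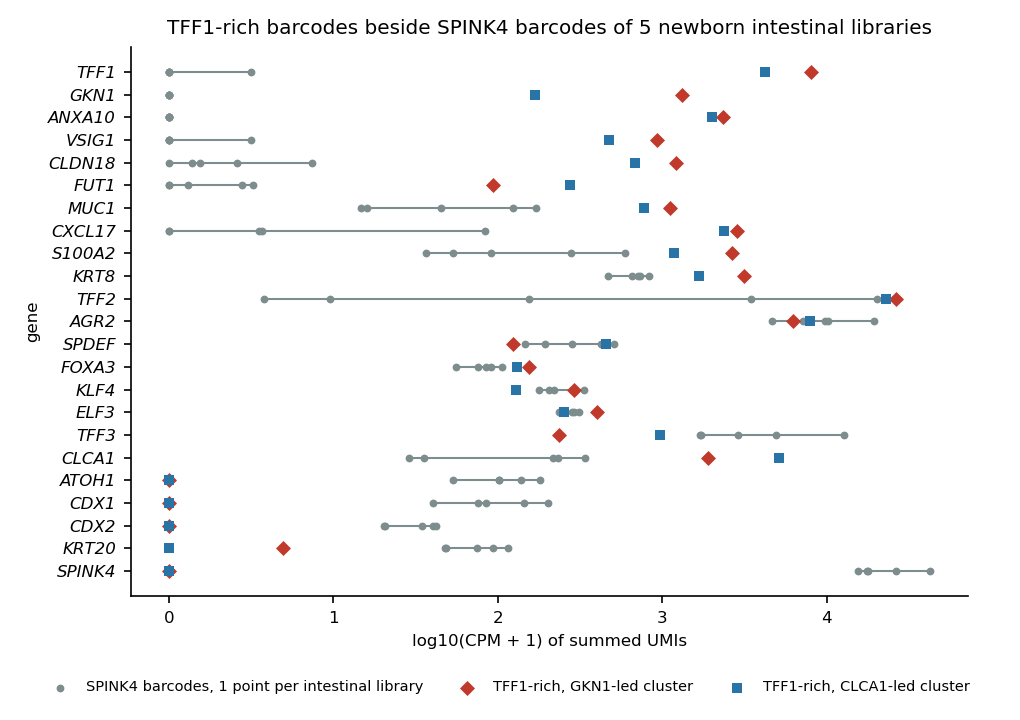
Levels of 23 genes (y axis) as log10(CPM + 1) of summed UMIs (x axis) in *TFF1*-rich barcodes of the *GKN1*-led (red diamonds) and *CLCA1*-led (blue squares) clusters, and in *SPINK4* barcodes of 5 newborn intestinal libraries (gray points joined by a line). *TFF1* to *KRT8* lie to the right of all goblet points, *AGR2* within them, and *ATOH1* to *SPINK4* to the left.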

How the data were processed

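Single-cell UMI counts of 15 libraries were used, and 1 of them, the newborn abomasum, holds the *TFF1*-rich barcodes. The authors aligned the reads to the ARS-UCD1.2 cattle genome and counted them with Cell Ranger 3.1.0, and the deposited values are whole UMI counts per gene and barcode without normalization. The annotation release is not given in the sources used here. Library totals ran from 17707625 to 129458578 UMIs, with 102878281 in the abomasum library.

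UMIs were summed over the barcodes of a group and scaled to CPM. Log2 ratios used a pseudocount of 1 CPM, and genes with a mean of at least 10 CPM over both groups were counted as tested, in the sense that they entered the counts of 2-fold differences. Intervals are at the 95% level: exact conditional binomial for folds, Clopper-Pearson for shares, and a floor of 3 UMIs for a count of 0. They cover counting error only. Barcodes within the limits were clustered with the Leiden method (2000 variable genes, 30 principal components, 20 neighbors, resolution 1), and Scrublet scores marked doublets at 0.8% per 1000 barcodes. The comparison was tested on simulated data with known changes. Clustering used scanpy 1.11.5 and igraph 0.11.9, and intervals were computed with SciPy 1.17.1 under Python 3.11.15.

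Named were *TFF1* and *ATP4A*, genes of the lists, the 15 largest ratios in each direction at 50 CPM or more, and the 20 highest levels. Other genes are said to have been chosen after their values were seen. The rule, the lists, and the clusters' comparison were chosen with earlier results of these data known. Of 440 listed genes, 419 have a symbol in the files, and 7540 of 27270 gene rows have none, holding 4.67% of the UMIs of *TFF1*-rich barcodes. Some genes that the naming rule selects are not reported here.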

Additional observations from a re-analysis of the deposited data

How the results depend on the processing

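Of the genes recomputed, *TFF3*, *SPDEF*, *CELA1*, and *KCNQ1* were higher in *TFF1*-rich than in other barcodes, by log2 ratios of 2.61, 2.39, 1.35, and 1.01, and lower with a *TFF1* minimum of 1%, at -1.15, -0.18, -1.39, and -0.50. No other gene with a recomputed ratio did so. These numbered 205 with the 50 CPM filter and at most 316, with some missing at the 1% minimum, and the remaining called genes were not run. Barcodes that fell below a raised minimum were counted with the other barcodes. Set against the 13400 other barcodes of the main rule, the 67 barcodes had *SPDEF* at 66.1 against 59.3 CPM. *TFF3* was at 60.8 against 103 CPM in the same comparison. The number of *TFF1*-rich barcodes was 383 at a *TFF1* minimum of 0.5% and 67 at 1%, and stayed within 1.5 times under the other filters. The 2352 higher and 354 lower genes became 751 and 924 with totals that leave out genes above 1% of UMIs, 587 and 603 centered on the median gene, and 826 and 80 with a filter at 50 CPM. With doublets removed, 752 *TFF1*-rich barcodes were left, with 2483 higher and 342 lower genes. With barcodes found in another library left out, the genes numbered 2335 and 351. The higher genes were 86.9% of all 2-fold differences, 44.8% with those totals, and 49.3% centered. The lower genes numbered 607 as the mean of barcode shares and 1450 without a filter. The 6 pit markers were 4 with the 50 CPM filter and 6 elsewhere. The share in clusters led by pit markers was 88.3% at resolution 0.5, 24.9% at resolution 2, and 34.3% with 15 principal components. Thinned to 2000 UMIs, *GKN1* was found in 36.4% of *TFF1*-rich barcodes, *GKN2* in 7.36%, *TFF2* in 98.6%, and *CLCA1* in 82.8%. Without thinning the shares were 53.1%, 17.8%, 99.6%, and 89.6%. The goblet definition by *SPINK4* and the count without the 33 barcodes of other clusters were added after seeing the data. Since 1 library stands behind every group, no value here carries the variation between animals. No paired analysis was possible because each group had 1 library.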

Other observations

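The genes in this paragraph are on no list and, apart from *TMSB10*, were chosen after their values were seen. All but *OXCT1* were higher in the *TFF1*-rich barcodes. *BDH1*, an enzyme of ketone body metabolism, was at 47.9 CPM against 1.91 CPM in the other barcodes. *OXCT1*, which starts ketone body use, was at 7.25 against 31.0 CPM and at 238 CPM in the parietal-like cluster. *ACSS2*, which activates acetate, was at 158 against 10.0 CPM and was 2.10-fold higher (1.84 to 2.41) in the *GKN1*-led than in the *CLCA1*-led *TFF1*-rich barcodes. *FABP5*, a fatty acid-binding protein, was at 3746 against 587 CPM, and *SPTSSB*, a subunit of the enzyme that starts sphingolipid synthesis, at 358 against 15.6 CPM. *IHH*, the signaling protein Indian hedgehog, was at 178 against 11.4 CPM and was found in 538 of 798 *TFF1*-rich barcodes. *GJB1*, a connexin, was at 79.2 against 2.58 CPM, and *MAL*, a membrane protein of apical transport, at 1693 against 115 CPM. The actin-binding cytoskeletal gene *TMSB10* was among the 20 highest levels, at 23537 CPM in the *TFF1*-rich barcodes, 3766 CPM in the others, and 1155 to 2030 CPM in the goblet barcodes.

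The trefoil genes *TFF3*, *TFF2*, and *TFF1* follow each other in the RefSeq annotation of assembly ARS-UCD2.0, and *GKN2* and *GKN1* are neighbors as well. *GKN2* was at 30.4, 77.9, and 254 CPM across the ranges in which *GKN1* was at 311, 664, and 2208 CPM.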
